A study of Mus musculus with 12 samples.

Results

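Tumor and stroma of colorectal tumors from wild type mice were compared after laser-capture microdissection, a technique that cuts chosen areas out of a tissue section. The comparison used 6 of the series' 12 samples, namely the 3 labelled Stat3wt stroma and the 3 labelled Stat3wt tumor. The tumors had been induced by AOM/DSS, that is, the carcinogen azoxymethane together with dextran sulfate sodium, an agent that injures and inflames the colon. The 6 other samples, labelled Stat3dm, were tumor and stroma from mice in which Stat3 had been deleted conditionally in myeloid cells, again treated with AOM/DSS, and they served here only to set the same tissue difference beside the wild type one. Each sample pooled 2 tumors of a single mouse, so a value averages over those tumors. The labels give neither the strain, the age, the driver of the deletion nor the way the areas were picked for capture. They also do not say whether tumor 1 and stroma 1 came from the same mouse. The p-values below rest on the spread between samples of a group, pooled over all 12 samples, wild type and deletion together.

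The colon is lined by an epithelium of columnar cells held together by cadherins, desmosomes and tight junctions. Stem cells at the crypt base, kept by Wnt signals, renew it and give rise to absorptive colonocytes, mucus-making goblet cells and rarer endocrine and tuft cells. Below it lies a stroma of fibroblasts, smooth muscle, vessels, nerves and immune cells, which lays down collagen matrix and sends the crypts signals such as R-spondins, Wnt ligands and BMP antagonists. AOM/DSS adenomas are epithelial growths that commonly carry an active Wnt pathway and sit in an inflamed stroma.

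RNA from the fixed, paraffin-embedded tissue was amplified and hybridised to single-colour Affymetrix arrays, and the deposited values are log2 signals. A difference below is the stroma mean minus the tumor mean on this log2 scale, so that -1 is a halving and 1 a doubling of the signal. Its standard error (SE) comes from limma, a linear model fitted to all 16635 genes tested on all 12 arrays. A gene's groups are said not to overlap where the lowest of the 3 arrays of a group lies above the highest of the other 3. In bulk tissue, fewer cells of a type and less RNA per cell cannot be told apart.

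In wild type mice, epithelial genes were lower in stroma than in tumor, with list medians of -0.94 for cell junctions and -1.08 for mucosal defence. Genes of collagens, with a median of 0.57, and of blood endothelium, with 0.51, were higher, as were genes common to leukocytes, with 0.58. By limma with Benjamini-Hochberg adjustment, 0 of 16635 genes passed an adjusted p of 0.05 between wild type stroma and tumor (0%), and the smallest adjusted p was 0.132. At an unadjusted p under 0.05, 851 genes were higher in stroma (5.12%) and 1932 lower (11.6%). The groups did not overlap for 2501 genes lower in stroma (15.0%) and 1478 genes higher in stroma (8.88%). These shares are the background for the counts of members of 36 gene lists given below. The lists held 592 names, of which 548 had a named probe set here and 521 passed the filter on dim genes and were tested. Of the non-overlapping genes 37.15% were higher in stroma, against 46.57% after quantile normalization of the deposited values and 24.75% after centring each array on its median. A difference of at least 2-fold was held by 409 genes, 364 of them lower in stroma and 45 higher. The values of single genes below therefore describe these 6 arrays, and no single gene is a call after adjustment in this fit. This fit does not pair tumor with stroma. With the sample number as a block, 138 genes passed as a fixed block and 5 as a random block, but the labels do not state such pairing.

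Part of the imbalance moved with signal strength. The log2 values of an array spread over a standard deviation (SD) of 1.79, 1.75 and 1.91 in tumor 1 to 3 and of 1.60, 1.69 and 1.76 in stroma 1 to 3. The 4159 brightest genes had a median difference of -0.37, and their groups did not overlap with stroma lower for 32.1%. The 4159 dimmest genes tested had a median difference of 0.17, and stroma was lower without overlap for 3.68%. After quantile normalization the medians of these sets were -0.10 and 0.06. The median over all genes tested was -0.04, or -0.14 with centred arrays. Where centring, quantile normalization, array SD as a covariate or leaving out an array moved a list median by more than 1.5 times, the moved value is given beside it. Array SD was mostly higher in tumor, so a fit with it as a covariate may also remove part of the tissue difference. Spread and tissue cannot be told apart there. Within a group, arrays correlated over genes at 0.910 to 0.967 in tumor and 0.894 to 0.948 in stroma. The first principal component of the wild type arrays held 59.5% of their variance, with tumor 3 at one end and stroma 1 at the other.

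**Figure D1:**
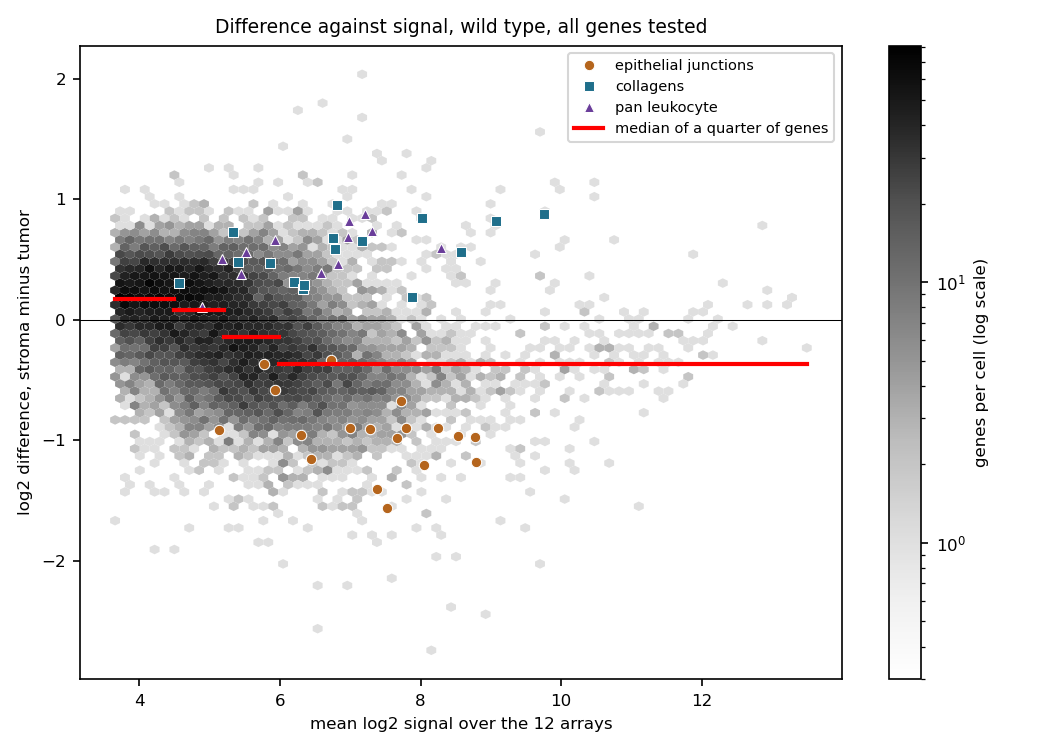
The log2 difference, wild type stroma minus tumor, of each of the 16635 genes tested is plotted against its mean log2 signal over the 12 arrays, with grey for the number of genes on a log scale and red lines for the medians of 4 sets of genes split by signal. Epithelial junction genes lie below 0 and collagens and pan-leukocyte genes above it, while the red medians go from 0.17 at the dim end to -0.37 at the bright end.

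All 8 markers of colon epithelium were lower in stroma without overlap, against 15.0% of all genes tested, and they still gave a clear signal there. Epcam, the epithelial adhesion molecule, had log2 signals of 8.90, 8.49 and 9.10 in tumor and 7.67, 8.05 and 8.08 in stroma. Its difference was -0.90 ± 0.30 (SE, n = 3 against 3), a signal 1.86 times higher in tumor, with an adjusted p of 0.237 by limma. Over the 8 markers the mean signal was 9.32, 8.60 and 9.21 in tumor and 8.08, 8.03 and 7.69 in stroma. All 6 goblet cell markers were lower in stroma without overlap as well. Of the markers of absorptive colonocytes and of crypt stem cells, only 1 of 4 in each set was, and 1 absorptive marker was above 0. Markers of the stroma were measured in the tumor arrays in turn. Col1a1, the main chain of fibrillar type I collagen, had signals of 9.09, 9.66 and 9.31 in tumor and 9.79, 10.28 and 10.61 in stroma, a difference of 0.88 ± 0.30 with no overlap. Both tissues thus held markers of both compartments, in different proportion. The markers tested of blood endothelium, pericytes, smooth muscle, leukocytes, macrophages and T cells were above 0 in each set. Over all genes tested, 7762 of 16635 were above 0. With stroma higher, 3 of 4 markers did not overlap for blood endothelium and T cells, and 1 of 3 for pericytes and leukocytes. It was 0 of 5 for smooth muscle and 0 of 4 for macrophages, against 8.88% of all genes tested. Of 6 fibroblast markers, 5 were above 0 and 2 did not overlap. Lymphatic, neutrophil and mast cell markers each had 2 of 3 above 0, and 1 lymphatic marker did not overlap in each direction. The red cell markers Hbb-b1 and Alas2 had no named probe set here.

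**Figure D2:**
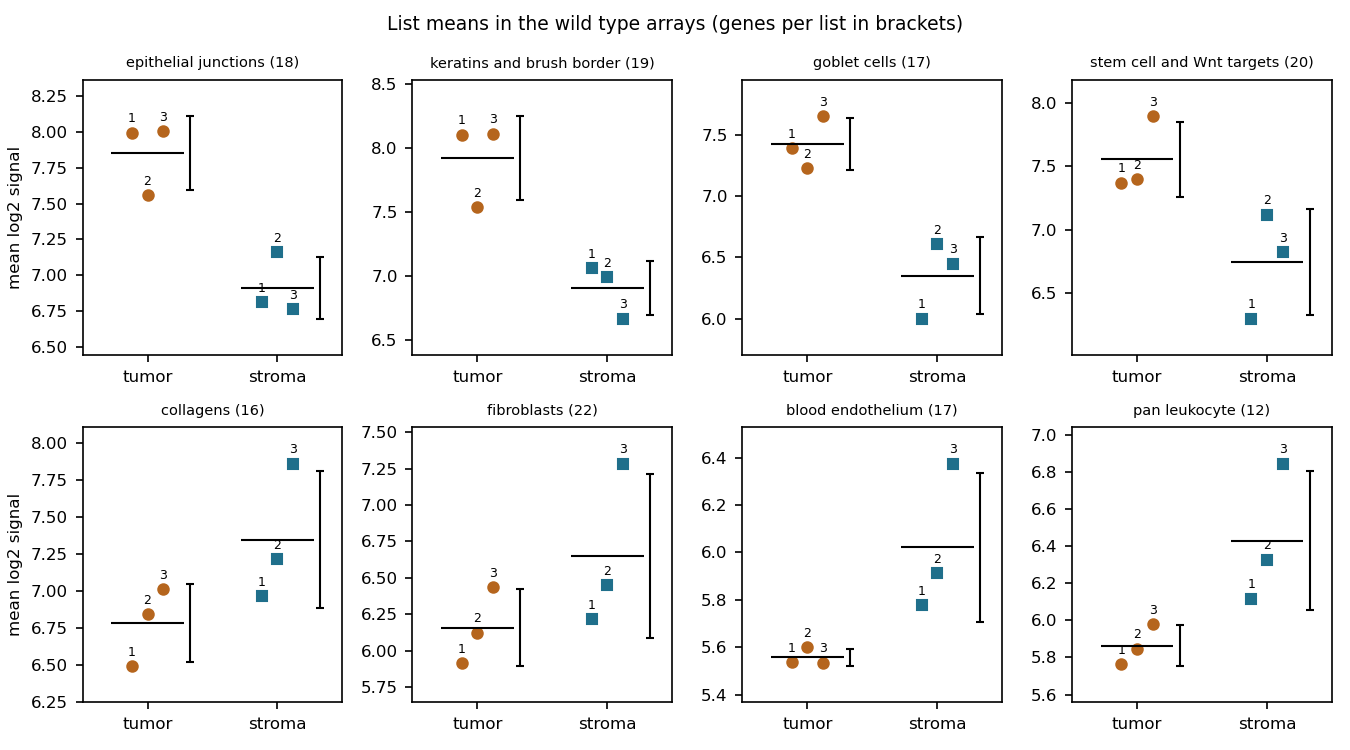
Each panel plots the mean log2 signal of a gene list in the 3 tumor and 3 stroma arrays of wild type mice, numbered as in the labels, with the group mean as a line and the SD of the 3 arrays as a bar. The epithelial junction, keratin, goblet cell and stem cell lists are lower in each stroma array than in each tumor array, and stroma 3 is the highest array for collagens, fibroblasts, blood endothelium and pan-leukocyte genes.

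Cell adhesion genes of the epithelium were all lower in stroma. The 18 epithelial junction genes tested, of 19 listed, had a median difference of -0.94. Of these, 18 were below 0 and 0 above, and 15 did not overlap with stroma lower, against 15.0% of all genes tested. Most epithelial lists were bright, so the nearer background is the 4159 brightest genes tested, from 5.99 up. Of those, 32.1% were lower without overlap. Median log2 signals were 7.45 for junction, 7.22 for keratin and brush border, 6.57 for goblet cell and 7.92 for mucosal defence genes. They were 6.90 for stem cell and Wnt target genes and 6.4 for epithelial transcription factors. Cdh17, the liver-intestine cadherin, had signals of 8.36, 7.73 and 8.48 in tumor and 6.87, 6.89 and 6.12 in stroma, a difference of -1.56 ± 0.35. Dsg2, a desmosomal cadherin, differed by -1.41 ± 0.35, with stroma 3 the lowest array at 6.24, and by -0.91 as the mean of its 2 probe sets. Cdh1, which encodes E-cadherin, differed by -1.18 ± 0.36, with all stroma arrays between 8.10 and 8.62 and no tumor array below 9.02. Dsc2, the partner desmosomal cadherin, differed by -1.16 ± 0.28. Cldn4, a tight junction claudin, differed by -1.20 ± 0.35. Jup, the plaque protein plakoglobin, differed by -0.91 ± 0.24.

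Keratins and brush border genes were lower in stroma with few exceptions. Over 19 tested of 19 keratin and brush border genes, the median difference was -1.0. Of them, 18 were below 0 and 1 above, and 16 did not overlap with stroma lower. Cdhr5, a protocadherin that links microvilli, had signals of 7.71, 7.01 and 7.49 in tumor and 5.75, 5.97 and 5.15 in stroma. Its difference of -1.78 ± 0.33 (adjusted p = 0.176) was among the 10 with the smallest p once predicted genes and the other classes passed over were left out. Krt20, the keratin of mature surface cells, had 8.93, 7.51 and 8.31 in tumor and 7.19, 6.64 and 5.77 in stroma, and the groups came close at tumor 2 and stroma 1. Krt23 differed by -1.75 ± 0.49. Muc13, a membrane mucin of the apical surface, had a difference of -1.43 ± 0.31. Krt8, the keratin common to simple epithelia, differed by -0.88 ± 0.33.

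Transcription factors that keep epithelial identity were lower in stroma as well. For the 18 tested of 21 epithelial transcription factors and splicing regulators, the median was -0.67, moving to -0.41 after quantile normalization and -0.36 with array SD as a covariate. There, 18 were below 0 and 0 above, and 13 did not overlap with stroma lower. Elf3, an ETS factor of differentiated epithelium, had signals of 8.91, 8.27 and 8.73 in tumor and 6.95, 7.48 and 7.22 in stroma, a difference of -1.42 ± 0.30 with all stroma arrays more than a log2 unit below the tumor mean. Esrp1, which sets epithelial splicing, differed by -1.17 ± 0.32. Foxa1, a pioneer factor, differed by -1.08 ± 0.31. Klf5, a crypt factor, had a difference of -1.09 ± 0.33.

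Goblet cell genes were all below 0. Of 17 goblet cell genes tested (19 listed), 17 were below 0 and 0 above, and 11 did not overlap with stroma lower. Across the 17, the median difference was -1.0, moving to -0.48 with array SD as a covariate. Zg16, a lectin that binds bacteria in mucus, had signals of 9.12, 9.86 and 9.09 in tumor and 6.31, 8.16 and 6.36 in stroma. Stroma 2 stood above the other stroma arrays and below all tumor arrays, and the difference was -2.41 ± 0.44 (adjusted p = 0.164), 5.33-fold higher in tumor. Klk1, tissue kallikrein, had 7.94, 7.42 and 6.88 in tumor and 4.21, 4.93 and 5.46 in stroma, a difference of -2.55 ± 0.41 with the smallest adjusted p of the table at 0.132. Muc2, the gel-forming mucin of the colon, had 10.93, 10.79 and 11.20 in tumor and 9.20, 9.84 and 10.31 in stroma, and differed by -1.19 ± 0.40. Fcgbp, which crosslinks the mucus gel, differed by -1.98 ± 0.51. Tff3, a trefoil peptide of mucosal repair, differed by -1.30 ± 0.35. Clca1, a mucus-processing protease, differed by -1.83 ± 0.49.

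Absorptive colonocytes were less uniform. The 22 absorptive colonocyte genes tested, of 26 listed, had a median difference of -0.54, moving to -0.91 with array SD as a covariate. Of these, 17 were below 0 and 5 above, and 6 did not overlap with stroma lower and 1 with stroma higher. Slc9a3, the apical sodium-proton exchanger, had signals of 6.60, 7.16 and 7.33 in tumor and 4.90, 6.08 and 4.51 in stroma, a difference of -1.87 ± 0.46. Lypd8, which keeps bacteria off the epithelium, had 11.71, 11.38 and 11.51 in tumor and 9.93, 10.77 and 9.20 in stroma, a difference of -1.56 ± 0.33. Car1, carbonic anhydrase of surface cells, had 8.36, 7.03 and 8.41 in tumor and 7.05, 5.27 and 6.07 in stroma, and its groups overlapped because tumor 2 lay below stroma 1. Slc26a3, the chloride-bicarbonate exchanger of mature colonocytes, was near the dim end of the array in all 6 samples, at 3.49 to 3.98, and its difference of -0.16 ± 0.47 had a 95% interval from -1.17 to 0.85.

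Genes of mucosal defence, made largely by the epithelium, were mostly lower in stroma. Over 17 tested of 18 mucosal defence genes, the median difference was -1.08, moving to -0.69 with array SD as a covariate. Of them, 15 were below 0 and 2 above, and 7 did not overlap with stroma lower, beside 32.1% of the 4159 brightest genes tested. Dmbt1, a secreted scavenger receptor, had signals of 10.08, 9.64 and 10.11 in tumor and 7.69, 8.86 and 7.23 in stroma, a difference of -2.02 ± 0.37 (adjusted p = 0.164). Duox2, which makes hydrogen peroxide at the surface, differed by -1.41 ± 0.34. Pigr, the receptor that carries IgA through epithelium, had a difference of -1.15 ± 0.41.

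Stem cell and Wnt target genes, which are typically high in AOM/DSS tumor epithelium, were also lower in stroma. For the 20 tested of 23 stem cell and Wnt target genes, the median was -0.71, moving to -0.42 after quantile normalization and -0.17 with array SD as a covariate. There, 20 were below 0 and 0 above, and 10 did not overlap with stroma lower. Apcdd1, a Wnt-induced inhibitor of the pathway, had signals of 9.47, 9.50 and 9.42 in tumor and 7.27, 8.57 and 7.30 in stroma, a difference of -1.75 ± 0.47. The 3 tumor arrays were close together, while stroma 2 stood well above the other stroma arrays. Axin2, a feedback inhibitor used as a Wnt readout, had 8.14, 8.24 and 8.84 in tumor and 6.60, 7.87 and 7.51 in stroma, a difference of -1.08 ± 0.40. Lgr5, the stem cell receptor for R-spondins, had 6.67, 6.62 and 7.78 in tumor and 5.63, 6.98 and 6.62 in stroma, and its groups overlapped. Lef1, a nuclear partner of beta-catenin, differed by -0.98 ± 0.33. Myc differed by -0.59 ± 0.23. With array SD as a covariate Axin2 differed by -0.21 and Lgr5 by 0.048, and 5 of the 20 genes were above 0.

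Proliferation genes showed smaller values. Of 25 cell cycle genes tested (26 listed), 23 were below 0 and 2 above, and 8 did not overlap with stroma lower and 1 with stroma higher. Across the 25, the median difference was -0.37, moving to -0.14 after quantile normalization, -0.03 with array SD as a covariate and -0.20 without tumor 3. Mki67, the proliferation marker, had signals of 6.82, 6.36 and 7.24 in tumor and 6.21, 6.31 and 6.06 in stroma, a difference of -0.61 ± 0.29 with stroma 2 just below tumor 2. Rare secretory and sensory lineages of the epithelium had medians above 0. The 12 enteroendocrine genes tested, of 13 listed, had a median difference of 0.17, moving to 0.07 with centred arrays, 0.10 after quantile normalization, 0.06 with array SD as a covariate, 0.27 without tumor 2, -0.07 without tumor 3 and 0.10 without stroma 3. Of these, 7 were above 0 and 5 below, and 2 did not overlap with stroma higher, against 8.88% of all genes tested. Pyy, an L cell hormone, had 7.13, 6.80 and 6.41 in tumor and 4.01, 7.11 and 5.48 in stroma, so that stroma 1 and stroma 2 differed by more than 3 log2 units and the groups overlapped. Over 8 tested of 10 tuft cell genes, the median difference was 0.20, moving to 0.10 with centred arrays, 0.01 with array SD as a covariate and 0.30 without tumor 2. Of them, 7 were above 0 and 1 below, and 0 did not overlap with stroma higher and 1 with stroma lower. Avil, an actin-binding protein of tuft cells, differed by -0.66 ± 0.22.

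Genes of energy metabolism and translation were lower in stroma too, but bright genes in general were. Median log2 signals were 7.36 for respiratory chain, 6.54 for hypoxia and glycolysis, 9.74 for ribosomal protein and 6.68 for immediate early genes. The 4159 brightest genes tested, from 5.99 up, had a median difference of -0.37, and 32.1% were lower without overlap. For the 17 tested of 19 respiratory chain genes, the median was -0.59, moving to -0.34 after quantile normalization and -0.24 with array SD as a covariate. There, 17 were below 0 and 0 above, and 15 did not overlap with stroma lower. Cox4i1, a subunit of cytochrome c oxidase, differed by -0.82 ± 0.20. Cox7b, another subunit of that enzyme and not on the list, had signals of 7.84, 7.44 and 7.90 in tumor and 5.99, 6.57 and 6.09 in stroma, a difference of -1.51 ± 0.24 (adjusted p = 0.132). Its 2 probe sets disagreed in size, and their mean differed by -0.78. Atp5md, a small subunit of ATP synthase, differed by -1.15 ± 0.19. Of 16 hypoxia and glycolysis genes tested (18 listed), 14 were below 0 and 2 above, and 7 did not overlap with stroma lower. Across the 16, the median difference was -0.54, moving to -0.30 after quantile normalization. Slc2a1, the glucose transporter GLUT1, had 8.12, 7.33 and 7.46 in tumor and 6.70, 6.71 and 6.51 in stroma, a difference of -1.0 ± 0.39, or of -0.56 as the mean of its 2 probe sets. Egln3, an oxygen sensor, differed by -1.28 ± 0.43. The 16 ribosomal protein genes tested, of 21 listed, had a median difference of -0.43, moving to -0.27 after quantile normalization and -0.11 with array SD as a covariate. Of these, 15 were below 0 and 1 above, and 10 did not overlap with stroma lower. Over 15 tested of 16 immediate early genes, which cells switch on within minutes of a stimulus, the median difference was -0.42, moving to -0.16 after quantile normalization, -0.21 with array SD as a covariate and -0.25 without stroma 1. Of them, 11 were below 0 and 4 above, and 6 did not overlap with stroma lower and 1 with stroma higher. Jun, a subunit of AP-1, had 8.04, 8.02 and 8.97 in tumor and 6.61, 7.95 and 7.75 in stroma, with stroma 1 apart from the rest.

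**Figure D3:**
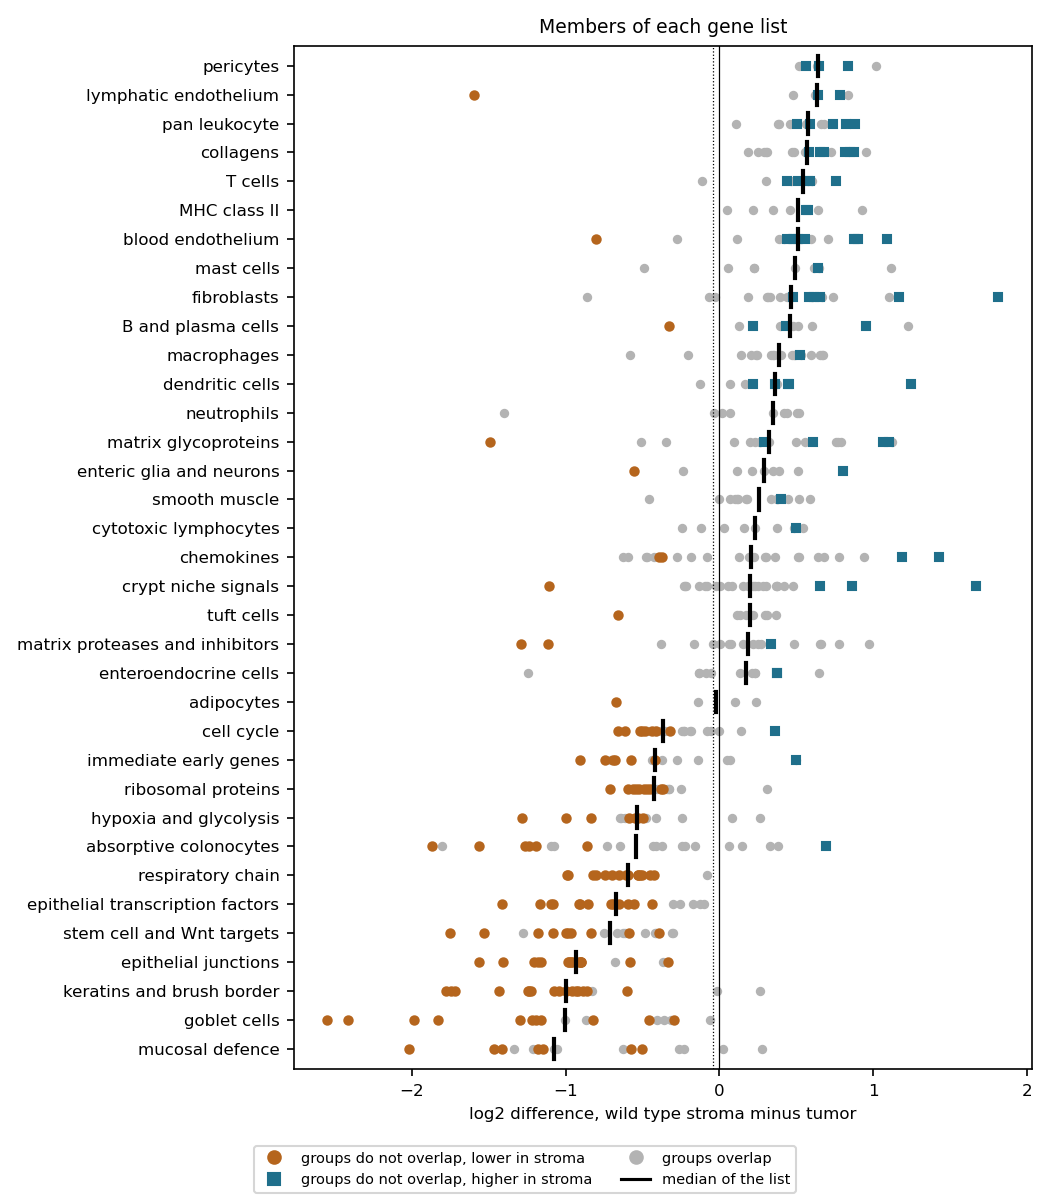
Each dot is a gene of a list, placed at its log2 difference, wild type stroma minus tumor, with colour for genes whose 3 stroma and 3 tumor arrays do not overlap and a black bar for the list median. The dotted line is the median of all genes tested. Most lists of the epithelium and those of metabolism lie to the left, and lists of vessels, matrix and leukocytes to the right. The enteroendocrine and tuft cell lists lie to the right too, at 0.17 and 0.20. A few coloured members are on the side opposite to their list, among them Prox1, Ecscr, Mgp, Dkk2, Plat and Mmp7.

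Short stretches before the start of 6 of these genes are shown because they hold a motif of a factor family that acts in this tissue. Motifs were searched on both strands of the 250 bases before the start. CDX factors, which specify intestinal epithelium, had the motif TTTATG. That of the GATA factors, which act in gut epithelium, was AGATAA. The motif used for AP-1, which drives many matrix proteases, was TGANTCA. TCF/LEF factors, the nuclear partners of beta-catenin, were searched as CTTTGAT, and the CArG box of muscle genes was searched too. Sequences are from RefSeq on build GRCm38.p6, read 5′ to 3′ on the gene's strand, with capitals for the motif.
Cdhr5: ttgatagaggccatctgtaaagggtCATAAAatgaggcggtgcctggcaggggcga
Krt23: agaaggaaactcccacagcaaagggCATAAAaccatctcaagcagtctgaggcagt
Agr2: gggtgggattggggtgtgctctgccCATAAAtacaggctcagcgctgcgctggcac
Epcam: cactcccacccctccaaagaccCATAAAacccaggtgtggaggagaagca
Muc2: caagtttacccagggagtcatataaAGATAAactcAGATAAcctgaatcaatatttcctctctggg
Mmp7: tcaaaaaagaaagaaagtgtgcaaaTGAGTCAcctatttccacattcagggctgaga
The Cdhr5 stretch is chr7:141276795-141276850 (minus strand), Krt23 chr11:99493122-99493177 (minus strand), Agr2 chr12:35992853-35992908 (plus strand), Epcam chr17:87635929-87635978 (plus strand), Muc2 chr7:141690146-141690211 (plus strand) and Mmp7 chr9:7692002-7692058 (plus strand). All 6 lie upstream of the start of their gene. In Cdhr5, Krt23, Agr2 and Epcam the CDX motif stands on the opposite strand, so the capitals read CATAAA, 39, 32, 47 and 28 bases before the start. These letters also resemble a TATA box. Agr2, a protein disulfide isomerase that folds mucins, differed by -1.16 ± 0.43. The CDX motif was held by 3 of 8 goblet cell genes with a promoter in the table, by 4 of 18 keratin and brush border genes, and by 8.47% of all genes tested. Other lists differed, with 0 of 19 absorptive colonocyte genes, 0 of 8 epithelial transcription factors and splicing regulators, 5 of 16 chemokine genes and 4 of 12 immediate early genes holding it. It was held by 6.82% of the genes lower in stroma without overlap and by 9.98% of those higher. The GATA motif occurs at 2 places in the Muc2 stretch and was held by 8.31% of genes tested. Without overlap, 7.57% of the genes lower in stroma and 12.1% of those higher held it. The AP-1 motif of Mmp7 was held by 6 of 13 genes of matrix proteases and their inhibitors and by 6.29% of genes tested. The TCF/LEF motif was held by 3.00% and the CArG box by 1.45% of genes tested. A match is a description of letters and not a binding site.

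Fibroblast genes were mostly higher in stroma, by smaller amounts and with stroma 3 ahead. For the 22 tested of 24 fibroblast genes, the median was 0.46, moving to 0.80 with array SD as a covariate and 0.10 without stroma 3. There, 19 were above 0 and 3 below, and 6 did not overlap with stroma higher. Sfrp1, a secreted Wnt antagonist, had signals of 4.81, 5.81 and 5.81 in tumor and 6.22, 7.05 and 8.59 in stroma, a difference of 1.81 ± 0.53 (adjusted p = 0.212) that was 1.16 without stroma 3. Fbln2, a fibulin of elastic fibres, had 5.74, 6.12 and 5.80 in tumor and 6.46, 6.83 and 7.86 in stroma, a difference of 1.17 ± 0.31. Dcn, the collagen-binding proteoglycan decorin, had 8.45, 8.26 and 9.44 in tumor and 9.64, 9.02 and 10.79 in stroma, so that tumor 3 lay above stroma 2 and the groups overlapped. Pdgfra, a receptor of many fibroblasts, had 6.76, 7.03 and 7.39 in tumor and 6.70, 6.68 and 7.61 in stroma, a difference of -0.07 ± 0.37 with a 95% interval from -0.85 to 0.72. Thy1, a surface protein of fibroblasts, differed by 0.65 ± 0.25.

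The collagens were above 0 throughout. Of 16 collagen genes tested (16 listed), 16 were above 0 and 0 below, and 6 did not overlap with stroma higher. Across the 16, the median difference was 0.57, moving to 0.33 without stroma 3. Col4a1, a chain of basement membrane collagen, had signals of 7.35, 7.84 and 7.99 in tumor and 8.29, 8.48 and 8.94 in stroma, a difference of 0.85 ± 0.24. Col3a1, the fibrillar collagen of loose tissue, differed by 0.82 ± 0.32. Col4a2, the partner chain in basement membrane, differed by 0.65 ± 0.26. The 19 matrix glycoprotein genes tested, of 21 listed, had a median difference of 0.33, moving to 0.59 after quantile normalization, 1.03 with array SD as a covariate, 0.20 without tumor 1, 0.55 without tumor 3, 0.69 without stroma 1 and 0.07 without stroma 3. Of these, 16 were above 0 and 3 below, and 4 did not overlap with stroma higher and 1 with stroma lower. Bgn, the proteoglycan biglycan, had 9.07, 9.80 and 9.43 in tumor and 9.85, 10.34 and 11.29 in stroma, a difference of 1.06 ± 0.35. Loxl1, which crosslinks elastin, differed by 1.10 ± 0.34. Mgp, an inhibitor of matrix calcification, went the other way, with 11.11, 11.50 and 11.40 in tumor and 7.90, 10.81 and 10.81 in stroma. Stroma 1 was far below the other arrays, and the difference of -1.49 ± 0.62 was -0.52 without it.

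Signals that stroma sends to crypts were mixed in direction, with a share of separated genes near that of all genes tested. Over 26 tested of 29 niche signal genes, the median difference was 0.20, moving to 0.10 with centred arrays, 0.42 with array SD as a covariate, 0.11 without tumor 1 and 0.10 without stroma 3. Of them, 18 were above 0 and 8 below, and 3 did not overlap with stroma higher and 1 with stroma lower. Over all genes tested these shares were 8.88% higher and 15.0% lower. Grem1, a BMP antagonist of fibroblasts around the crypt base, had signals of 6.08, 6.39 and 6.16 in tumor and 7.05, 7.64 and 8.93 in stroma, a difference of 1.67 ± 0.38 (adjusted p = 0.185) and a 3.17-fold higher signal in stroma. Each stroma array lay above each tumor array, and the difference was 1.14 without stroma 3. Wnt2b, a Wnt ligand of subepithelial cells, had 5.36, 5.50 and 5.32 in tumor and 5.85, 6.01 and 6.91 in stroma, a difference of 0.86 ± 0.35. Bmp4, a differentiation signal, had 6.86, 7.04 and 6.84 in tumor and 7.50, 7.49 and 7.72 in stroma, a difference of 0.65 ± 0.32. Dkk2, a Wnt antagonist that tumor epithelium can also make, was lower in stroma, with 6.79, 6.79 and 7.09 in tumor and 5.31, 6.03 and 6.02 in stroma and a difference of -1.11 ± 0.25.

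Pericyte genes were all above 0, and smooth muscle genes leaned to stroma without separating the groups. For the 16 tested of 16 smooth muscle genes, the median was 0.26, moving to 0.16 with centred arrays, 0.41 after quantile normalization, 0.56 with array SD as a covariate, 0.07 without tumor 1, 0.53 without stroma 1 and 0.03 without stroma 3. There, 14 were above 0 and 2 below, and 1 did not overlap with stroma higher, a share below the 8.88% of all genes tested. Myh11, the smooth muscle myosin, had signals of 5.05, 6.40 and 6.85 in tumor and 5.96, 6.80 and 7.32 in stroma, and tumor 1 and stroma 1 were the lowest arrays of their groups. Of 6 pericyte genes tested (7 listed), 6 were above 0 and 0 below, and 3 did not overlap with stroma higher. Across the 6, the median difference was 0.64. Notch3, the receptor that marks mural cells, had 5.33, 5.30 and 5.22 in tumor and 5.68, 5.75 and 6.36 in stroma, a difference of 0.65 ± 0.25. Kcnj8, a channel subunit of pericytes, differed by 0.83 ± 0.30.

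Vessel genes were higher in stroma with few exceptions. The 17 blood endothelium genes tested, of 18 listed, had a median difference of 0.51, moving to 0.77 with array SD as a covariate and 0.30 without stroma 3. Of these, 15 were above 0 and 2 below, and 9 did not overlap with stroma higher and 1 with stroma lower. Plvap, the diaphragm protein of fenestrated vessels, had signals of 7.57, 7.35 and 7.08 in tumor and 8.17, 8.21 and 8.89 in stroma, a difference of 1.09 ± 0.27 (adjusted p = 0.185). Vwf, the endothelial clotting glycoprotein, had 5.53, 5.53 and 5.40 in tumor and 6.23, 6.22 and 6.63 in stroma, with tight groups and a difference of 0.87 ± 0.22. Erg, the endothelial ETS factor, differed by 0.90 ± 0.19. Eng, a TGF-beta co-receptor, had a difference of 0.88 ± 0.25. Selp, the P-selectin that catches leukocytes, differed by 1.11 ± 0.31, with stroma 2 at 5.34 close to the tumor arrays. Ecscr, an endothelial surface protein, was lower in stroma, with a difference of -0.80 ± 0.21.

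Lymphatic and glial genes were also mostly above 0, but for glia and neurons the median turned negative with array SD as a covariate. Over 6 tested of 7 lymphatic endothelium genes, the median difference was 0.63, moving to 0.24 without stroma 3. Of them, 5 were above 0 and 1 below, and 2 did not overlap with stroma higher and 1 with stroma lower. Lyve1, the hyaluronan receptor of lymphatic vessels, had signals of 5.23, 5.46 and 5.14 in tumor and 5.95, 6.05 and 6.18 in stroma, a difference of 0.79 ± 0.20. Prox1, the master factor of lymphatic identity and a Wnt target in colorectal tumor epithelium, had 8.45, 8.40 and 9.46 in tumor and 6.01, 7.87 and 7.65 in stroma, lower in stroma, with a difference of -1.59 ± 0.62, or of -0.24 with array SD as a covariate. For the 9 tested of 14 genes of enteric glia and neurons, the median was 0.29, moving to 0.19 with centred arrays, 0.17 after quantile normalization, -0.10 with array SD as a covariate and 0.19 without tumor 3. There, 7 were above 0 and 2 below, and 1 did not overlap with stroma higher and 1 with stroma lower. The list was dim, with a median log2 signal of 4.95. Of the 4159 genes tested with signals from 4.489 to 5.21, 11.1% were higher and 7.77% lower without overlap. Sox10, the glial factor, had 4.08, 4.30 and 3.48 in tumor and 5.09, 4.80 and 4.38 in stroma, a difference of 0.80 ± 0.28. Its signal was low in all arrays.

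Genes common to leukocytes were all above 0. Of 12 genes common to leukocytes tested (12 listed), 12 were above 0 and 0 below, and 5 did not overlap with stroma higher. Across the 12, the median difference was 0.58, moving to 0.35 without stroma 3. Itgb2, the beta chain of leukocyte integrins, had signals of 6.04, 6.28 and 6.72 in tumor and 6.86, 6.99 and 7.66 in stroma, a difference of 0.82 ± 0.27. Ptprc, the leukocyte antigen CD45, had 4.79, 4.89 and 5.98 in tumor and 5.27, 5.95 and 6.44 in stroma, and tumor 3 lay above stroma 1 and 2, so the groups overlapped. Selplg, the ligand of P-selectin, differed by 0.88 ± 0.24. Coro1a, an actin regulator of leukocytes, differed by 0.74 ± 0.24.

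Myeloid genes leaned to stroma without separating the groups. The 21 macrophage genes tested, of 23 listed, had a median difference of 0.39, moving to 0.79 with array SD as a covariate, 0.76 without stroma 1 and 0.05 without stroma 3. Of these, 19 were above 0 and 2 below, and 1 did not overlap with stroma higher. Csf1r, the receptor for macrophage growth factor, had signals of 6.26, 6.51 and 6.80 in tumor and 6.23, 7.23 and 8.14 in stroma, from a stroma 1 below all tumor arrays to a stroma 3 above them. Its difference of 0.67 ± 0.36 was 0.20 without stroma 3. Over 9 tested of 11 neutrophil genes, the median difference was 0.35, moving to -0.20 with array SD as a covariate and 0.13 without stroma 1. Of them, 7 were above 0 and 2 below, and 0 did not overlap with stroma higher. S100a8, a calprotectin chain abundant in neutrophils, had 9.08, 8.61 and 8.18 in tumor and 9.12, 8.56 and 8.08 in stroma, a difference of -0.03 ± 0.55 with a 95% interval from -1.22 to 1.15. The share of separated macrophage and neutrophil genes was thus below the background of 8.88%.

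Dendritic cell and lymphocyte genes were mostly above 0. For the 9 tested of 10 dendritic cell genes, the median was 0.36. There, 8 were above 0 and 1 below, and 5 did not overlap with stroma higher. Ccr7, the receptor that guides dendritic cells and naive T cells to lymphoid tissue, had signals of 4.31, 4.62 and 4.11 in tumor and 5.16, 6.09 and 5.54 in stroma, a difference of 1.25 ± 0.34 (adjusted p = 0.195). Of 10 T cell genes tested (13 listed), 9 were above 0 and 1 below, and 5 did not overlap with stroma higher. Across the 10, the median difference was 0.54. Cd4, the helper T cell co-receptor, had 4.80, 4.92 and 4.46 in tumor and 5.29, 5.49 and 5.68 in stroma, a difference of 0.76 ± 0.22. Cd8a, that of cytotoxic T cells, differed by 0.51 ± 0.21. The 9 genes of cytotoxic lymphocytes tested, of 12 listed, had a median difference of 0.23, moving to 0.13 with centred arrays, -0.08 with array SD as a covariate, 0.11 without tumor 3, 0.14 without stroma 2 and 0.40 without stroma 3. Of these, 7 were above 0 and 2 below, and 1 did not overlap with stroma higher. The list was dim, with a median log2 signal of 4.16. The 4159 dimmest genes tested had a median difference of 0.17, and 13.7% were higher without overlap. Gzma, granzyme A, differed by 0.50 ± 0.25. Over 10 tested of 14 B and plasma cell genes, the median difference was 0.46, moving to 0.27 with array SD as a covariate and 0.29 without tumor 3. Of them, 9 were above 0 and 1 below, and 3 did not overlap with stroma higher and 1 with stroma lower. Pou2af1, a B cell co-activator, had 5.33, 5.13 and 4.59 in tumor and 5.78, 6.02 and 6.10 in stroma, a difference of 0.95 ± 0.29. Jchain, which joins secreted IgA, had 6.52, 7.84 and 6.98 in tumor and 6.45, 9.05 and 9.51 in stroma, with stroma 1 below all tumor arrays.

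Mast cell and antigen presentation genes were mostly above 0. For the 9 tested of 11 mast cell genes, the median was 0.49, moving to 0.27 without tumor 1, 0.15 without tumor 2 and -0.02 without stroma 3. There, 8 were above 0 and 1 below, and 1 did not overlap with stroma higher. The median log2 signal of this list was 4.56, and 11.1% of the 4159 genes tested with signals from 4.489 to 5.21 were higher without overlap. Tpsab1, a tryptase, had signals of 4.34, 4.04 and 4.15 in tumor and 5.16, 4.69 and 4.61 in stroma, a difference of 0.64 ± 0.24. Of 8 MHC class II genes tested (9 listed), 8 were above 0 and 0 below, and 2 did not overlap with stroma higher. Across the 8, the median difference was 0.51, moving to 0.33 without stroma 3. MHC class II presents antigen to helper T cells. Ciita, its master regulator, had 6.12, 5.82 and 5.66 in tumor and 6.54, 6.39 and 6.39 in stroma, a difference of 0.57 ± 0.24. H2-Eb1, a class II chain, differed by 0.92 ± 0.33.

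Chemokines and matrix proteases were mixed in direction. The 24 chemokine genes tested, of 25 listed, had a median difference of 0.21, moving to 0.11 with centred arrays, 0.13 without tumor 1 and -0.0027 without stroma 3. Of these, 14 were above 0 and 10 below, and 2 did not overlap with stroma higher and 2 with stroma lower. Ccl22, which draws CCR4-bearing T cells, had signals of 5.28, 5.50 and 5.22 in tumor and 6.31, 6.90 and 7.06 in stroma, a difference of 1.42 ± 0.35 (adjusted p = 0.185) and a 2.68-fold higher signal in stroma. Ccl5, which draws T cells and monocytes, had 6.15, 5.57 and 5.01 in tumor and 6.77, 6.87 and 6.67 in stroma, a difference of 1.19 ± 0.32. Cxcl12, the ligand of CXCR4, had 6.57, 7.24 and 6.70 in tumor and 7.08, 7.69 and 8.55 in stroma, and its groups overlapped. Cx3cl1, a membrane-bound chemokine, was lower in stroma, with a difference of -0.37 ± 0.21. Over 18 tested of 22 genes of matrix proteases and their inhibitors, the median difference was 0.18, moving to 0.09 with centred arrays, 0.33 after quantile normalization, -0.02 with array SD as a covariate, 0.34 without stroma 2 and 0.03 without stroma 3. Of them, 13 were above 0 and 5 below, and 1 did not overlap with stroma higher and 2 with stroma lower. For chemokines and matrix proteases alike, the share separated with stroma higher was no greater than the 8.88% of all genes tested. Mmp7, the matrix metalloprotease of epithelial tumor cells, had 9.24, 9.38 and 9.82 in tumor and 7.79, 8.65 and 8.67 in stroma, lower in stroma, with a difference of -1.11 ± 0.43. Plat, tissue plasminogen activator, had 7.98, 7.74 and 7.89 in tumor and 6.81, 6.76 and 6.17 in stroma, a difference of -1.29 ± 0.34. Mmp2, the gelatinase of fibroblasts, had 7.28, 7.95 and 8.37 in tumor and 7.73, 8.35 and 9.48 in stroma, and its groups overlapped.

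**Figure D4:**
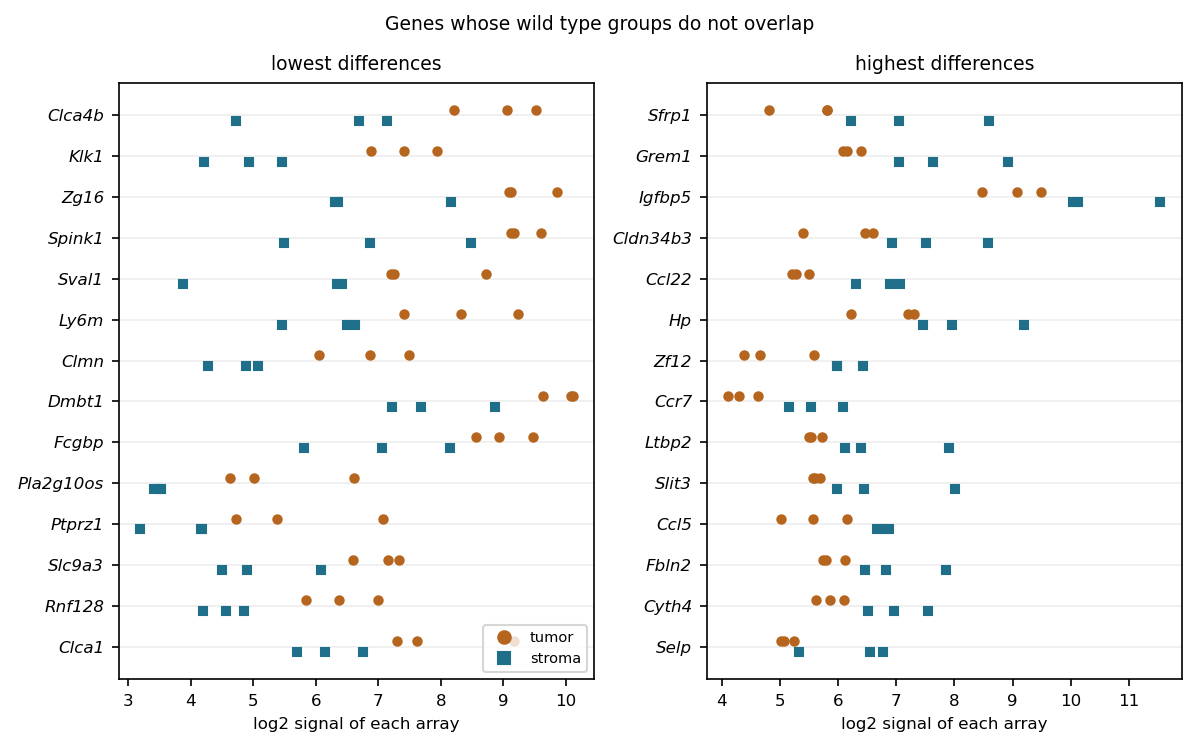
The log2 signal of each wild type array is plotted for the 14 lowest and 14 highest differences among genes whose groups do not overlap, with circles for tumor and squares for stroma. The goblet cell genes Zg16, Klk1, Fcgbp and Clca1 stand in the left panel beside genes on none of the lists, such as Spink1 and Ptprz1. Sfrp1, Grem1, Igfbp5, Ccl22 and Ccr7 stand in the right panel.

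Among all genes tested, the lowest difference without overlap was that of Clca4b, a chloride channel accessory protein of the gut surface, with signals of 9.53, 8.21 and 9.06 in tumor and 6.70, 7.15 and 4.73 in stroma and a difference of -2.74 ± 0.61. Spink1, a trypsin inhibitor, differed by -2.35 ± 0.50. Stra6, a retinol transporter, differed by -1.73 ± 0.37. Tnfrsf11b, the decoy receptor osteoprotegerin, had 6.83, 7.20 and 7.48 in tumor and 4.92, 5.84 and 5.97 in stroma and differed by -1.59 ± 0.27 (adjusted p = 0.132). On the other side, Igfbp5, which binds insulin-like growth factors, had 8.47, 9.07 and 9.49 in tumor and 10.03, 10.13 and 11.54 in stroma, a difference of 1.55 ± 0.40. Meox1, a mesenchymal homeobox factor, was the only gene higher in stroma among the 10 with the smallest p, predicted genes and other classes passed over. It had 4.64, 4.33 and 4.43 in tumor and 5.43, 5.67 and 5.17 in stroma and a difference of 0.96 ± 0.19 (adjusted p = 0.185). Slit3, a guidance ligand, differed by 1.19 ± 0.41, and by 0.59 without stroma 3. Ltbp2, a microfibril protein, differed by 1.22 ± 0.46, and by 0.67 without it.

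The same tissue difference was then read in the Stat3 deletion samples, which share no array with the wild type ones but were summarised together with them. Of the 2501 genes lower in wild type stroma without overlap, 461 were also lower without overlap in deletion stroma (18.4% of the wild type genes and 38.7% of the 1191 deletion genes, which were 7.16% of genes tested). Of the 1478 genes higher in wild type stroma, 246 were so in deletion stroma (16.6% and 22.5% of the 1093 deletion genes, a background of 6.57%). The sign was the same in the deletion for 88.2% of the wild type lower genes and 73.9% of the higher ones. Over all genes tested, 54.45% were below 0 in the deletion. Opposite separation was found for 18 and 11 genes.

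**Figure D5:**
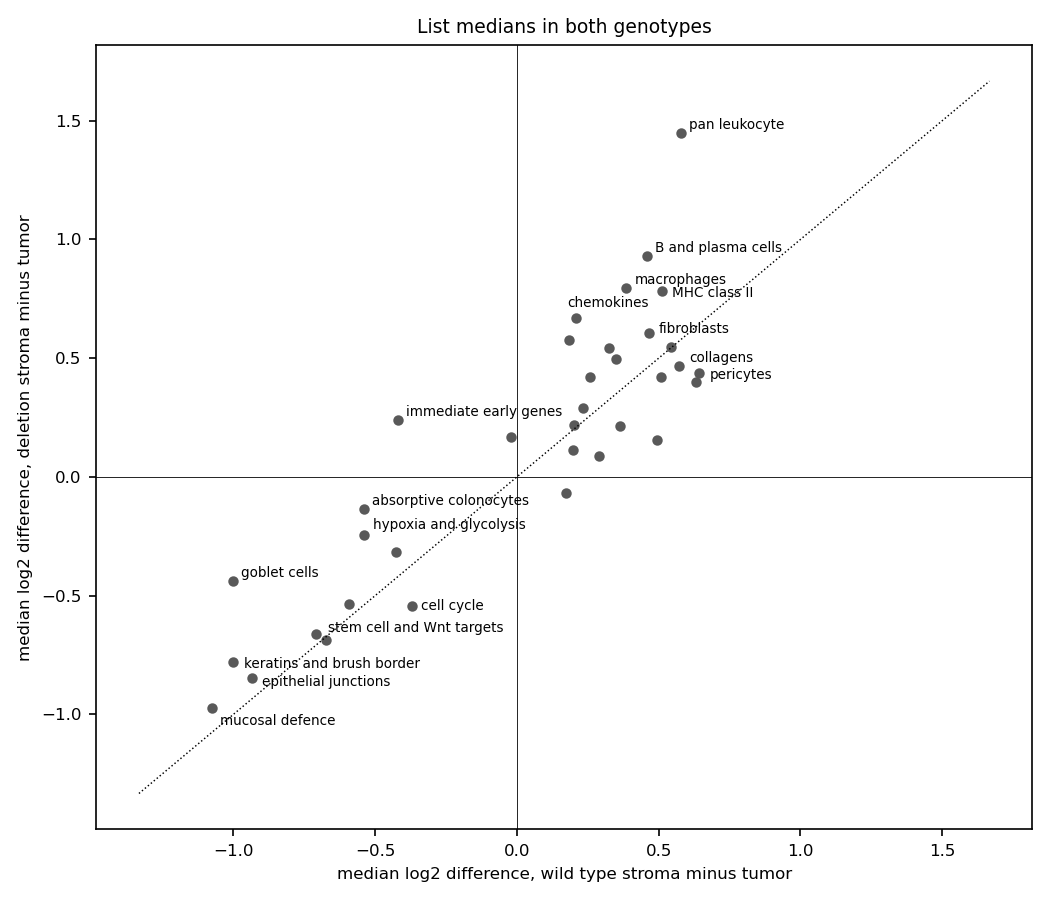
Each dot is a gene list with at least 4 genes tested, at its median log2 difference, stroma minus tumor, in wild type (horizontal) and Stat3 deletion samples (vertical), with equal medians on the dotted line. Most epithelial lists lie in the lower left and most stromal and leukocyte lists in the upper right, with pan-leukocyte genes at 1.45 in the deletion against 0.58 in wild type and goblet cell genes at -0.44 against -1.0.

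Whether the tissue difference itself differed between genotypes was tested with the interaction in the same limma fit. It passed an adjusted p of 0.05 for 0 genes (smallest adjusted p 0.995), and 401 had an unadjusted p under 0.05 (2.41%). List medians of epithelial junctions were -0.94 in wild type and -0.85 in deletion samples, and those of collagens 0.57 and 0.47. Goblet cell genes had medians of -1.0 and -0.44, and 4 of 17 had an unadjusted interaction p under 0.05. Mean signals of this list in deletion samples were 7.683, 7.385 and 7.998 in tumor and 7.514, 6.588 and 7.156 in stroma. Deletion stroma 1 was thus the highest of the deletion stroma arrays. The same held for keratin and brush border genes, at 7.846. For absorptive colonocyte genes it had 7.952, above each deletion tumor array. How far the smaller goblet cell median rests on this array was not tested. Zg16 had a deletion difference of -0.10 ± 0.44, with an interaction p of 0.00236 unadjusted and 0.995 adjusted. Its deletion signals were 9.84, 9.35 and 10.20 in tumor and 10.41, 9.38 and 9.30 in stroma, so those groups overlapped. Leukocyte genes had medians of 0.58 and 1.45, and all 12 were separated in deletion samples. Cd53, a leukocyte tetraspanin, had wild type signals of 4.66, 4.50 and 5.28 in tumor and 5.05, 4.88 and 5.65 in stroma and deletion signals of 5.05, 4.60 and 5.04 in tumor and 7.38, 6.71 and 6.62 in stroma, with an interaction p of 0.000978 unadjusted and 0.995 adjusted. Tnfrsf11b differed by -0.19 ± 0.27 in deletion samples. By limma its interaction had a p of 0.00231 unadjusted and 0.995 adjusted.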

How the data were processed

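Per the submitters' processing notes, the authors used RMA in Affymetrix Expression Console 1.3.1 to make the deposited log2 signals, which cover 12 arrays and 41345 probe sets. RMA removes background, gives the probes of each array a common distribution and merges them into sets. RNA came from laser-captured, fixed tissue, and 50 ng were amplified with a kit for such tissue, per the labels' protocols. The values were used as deposited. No source used here gives the build behind them. The number of arrays, 3 in each of 4 groups, limits the precision.

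The platform annotation named 23521 probe sets with 1 symbol and 1814 with several, and 16010 were unnamed here. A RefSeq table (GRCm38.p6) held 23328 of the named ones, with 0 symbols altered. This gave 22180 genes. For the 1082 with several probe sets, the brightest set on average was taken. The 25% dimmest genes, below 3.65, were left out, which left 16635. limma 3.58.1 (lmFit and eBayes, R 4.3.3) fitted a mean per group, with Benjamini-Hochberg adjustment over all genes tested. Adjusted and interaction p-values of single genes are from this fit. The fit was also run on simulated data, with independent noise for each gene and large changes put into the wild type contrast only. That run did not cover the interaction or spread shared over an array. Lists were described by counts and medians, with no test.

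Members and lists were chosen with earlier results of these data known. Named are up to 6 members of a list with the smallest p, cell type markers, the 20 highest and 20 lowest differences without overlap, and the 10 smallest p, passing over predicted genes, receptors of smell and taste, small RNAs, keratin-associated proteins and immune receptor segments. The text names some of these. Reg3b lies outside the rule and was named after its values were seen.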

Additional observations from a re-analysis of the deposited data

How the results depend on the processing

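The count of 0 genes past an adjusted p of 0.05 between wild type stroma and tumor was also found in the wild type arrays alone, under both scalings, both other filters, the mean over probe sets, the trended prior, array SD as a covariate and in 5 of the 6 fits that left out an array. It was 8 without stroma 2 (range over the left-out arrays 0 to 8). Array weights gave 3963 genes, but that estimate stopped before converging, and weights estimated gene by gene, chosen after seeing the data, gave 1004 (266 higher and 738 lower in stroma). With the replicate number as a block, 138 genes passed as a fixed block (16 higher, 122 lower) and 5 as a random block. Deviations from the group means of same-numbered tumor and stroma correlated at 0.44, -0.0041 and 0.51 in wild type and at 0.12, 0.16 and 0.30 in deletion samples. Between different numbers the correlations ran from -0.50 to 0.33 in wild type and from -0.29 to 0.12 in deletion samples. Not every sample correlated best with its own number (wild type stroma 2 reached 0.043 with tumor 3). The main fit does not pair the samples because the labels do not state pairing, and these correlations cannot decide it. The interaction count of 0 became 4 and 3 with the same array weights. At an unadjusted p under 0.05, genes higher in stroma numbered 453 with centred arrays, 430 with the dimmest 50% left out, 1289 with no filter, 2704 and 1613 with the array weights, 1323 and 1405 with the replicate block, and 376 to 1195 without an array, lowest without tumor 3. Genes lower numbered 1283 after quantile normalization, 641 with array SD as a covariate, 3756 with array weights, 2931 with the fixed replicate block and 849 to 2593 without an array, again lowest without tumor 3. Groups that did not overlap with stroma higher numbered 746 with the dimmest 50% left out, 2315 with no filter and 1889 to 3015 without an array, and with stroma lower 2918 to 4149, counts that must rise with fewer arrays. Among named genes, the difference of Pdgfra turned to 0.53 with array SD as a covariate, 0.26 after quantile normalization, 0.038 and 0.025 with the array weights, and ranged from -0.37 to 0.10 without an array, above 0 without stroma 1, stroma 2 or tumor 3. Lgr5 turned to 0.048 with array SD as a covariate and 0.068 with array weights. S100a8 turned to 0.28 after quantile normalization and ranged from -0.30 to 0.22 without an array. Cpa3 ranged from -0.60 without stroma 3 to 1.45 without tumor 3. Reg3b turned to -0.83 with array SD as a covariate and to -2.34 and -3.30 with the array weights, and ranged from -0.67 without stroma 1 to 1.93 without tumor 1. Slc4a1 turned to -0.029 with array SD as a covariate. The causes were not tested.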

Other observations

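Some genes followed the sample number more than the tissue, and they are named because of the values seen. Reg3b, an antibacterial lectin that injured epithelium makes, had log2 signals of 10.04, 4.91 and 5.23 in tumor and 8.89, 5.60 and 6.53 in stroma. Both samples numbered 1 were thus far above the other 4, and the tissue difference of 0.28 ± 1.07 was small beside that spread. Cpa3, carboxypeptidase of mast cells, had 4.19, 3.73 and 6.47 in tumor and 3.97, 4.43 and 7.83 in stroma, with both samples numbered 3 highest. Tpsb2, a mast cell tryptase, had 4.05, 4.24 and 5.83 in tumor and 4.62, 5.04 and 7.80 in stroma, again with both samples numbered 3 highest and a tissue difference of 1.12 ± 0.63. The labels do not say that samples of a number share a mouse.

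Adipocyte genes and the red cell list gave little. The 4 adipocyte genes tested, of 6 listed, had a median difference of -0.02, moving to -0.12 with centred arrays, -0.09 after quantile normalization, -0.20 with array SD as a covariate, -0.06 without tumor 1, -0.08 without tumor 2, -0.07 without tumor 3, 0.01 without stroma 1, -0.17 without stroma 2 and -0.18 without stroma 3. Of these, 2 were below 0 and 2 above, and 1 did not overlap with stroma lower. Pparg, a nuclear receptor that colon epithelium also makes, had signals of 5.41, 4.93 and 5.42 in tumor and 4.71, 4.40 and 4.62 in stroma, a difference of -0.67 ± 0.22. Of 4 red cell genes, 1 was tested. Slc4a1, the anion exchanger of red cells, had signals of 5.07, 5.42 and 4.53 in tumor and 5.80, 5.47 and 5.13 in stroma, a difference of 0.46 ± 0.25 that was -0.029 with array SD as a covariate, and its groups overlapped.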
